A study of Homo sapiens with 7 samples.

Results

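The leukocyte integrins and their ICAM ligands, 10 genes in all, were followed in MOLM13, a monocytic cell line of human acute myeloid leukemia, across 7 RNA-seq libraries. They are the integrin alpha chains ITGAM, ITGAX, ITGAL, ITGA4 and ITGA5, the beta chains ITGB1, ITGB2 and ITGB7, and the ligands ICAM1 and ICAM3. Members were taken by gene symbol, and all 10 were found among 11408 genes with expression values. Of the libraries, 4 came from cells given either of 2 single guide RNAs against ZFP36L2, an RNA-binding protein that recruits deadenylases to AU-rich messages, and 3 from cells given the non-targeting guide sgRosa. All were collected 6 days after transduction and served to ask how ZFP36L2 knockout changes gene expression in this leukemia. The ZFP36L2 guides are called 3 and 5 here, as in the deposited column names, with 2 libraries each. The labels do not say whether the replicates were separate cultures, so p-values measure the spread between these libraries. All groups are the same cell line, and the labels do not give the share of edited cells.

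Integrins are heterodimers of an alpha and a beta chain that bind ligands on other cells or in the matrix. The beta2 chain, ITGB2 (CD18), pairs with ITGAL to form LFA-1, with ITGAM to form Mac-1, the complement receptor CR3, and with ITGAX to form CR4. ITGAM (CD11b) and ITGAX (CD11c) are acquired as myeloid progenitors mature, while LFA-1 is present on nearly all leukocytes. ITGA4 and ITGA5 pair with ITGB1 to form VLA-4 and the fibronectin receptor VLA-5, and ITGA4 also pairs with ITGB7 in a gut-homing receptor. ICAM1 and ICAM3 are immunoglobulin-type ligands of LFA-1.

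Recovered reads numbered 28088053 to 38807816 in the ZFP36L2 guide libraries and 16907955 to 25164359 in the sgRosa libraries. A single read stood for 0.0261 to 0.0540 CPM (reads scaled to the authors' library size), far below the lowest value of any of the 10 genes, which all passed the filter of a mean of 1 CPM. Control replicate 2 stood apart in its reads from mitochondrial pseudogenes, at 0.160% of reads against 0.0463% to 0.0828% in the other libraries. The ZFP36L2 message itself stood higher in the libraries labelled as knockout, at 1132, 1353, 734 and 689.7 CPM in the guide libraries, against 337, 334 and 311 CPM in the sgRosa libraries (log2 difference 1.52, SE 0.16, adjusted p = 1.21e-05). Small insertions and deletions need not lower a message, so its level does not check the label. Why the ZFP36L2 message stood higher was not tested. All 9 markers of a myeloid leukemia line had values, summing to 11060 to 20300 CPM in guide libraries and 5285 to 8085 CPM in sgRosa libraries. Most of the sum was LYZ, lysozyme, with 9387 to 18450 CPM in guide libraries and 3623 to 6708 CPM in sgRosa libraries. FLT3 (242 to 394 CPM in guide libraries, 440 to 620 CPM in sgRosa libraries) and MEIS1 (28.3 to 30.0 CPM in guide libraries, 45.1 to 82.8 CPM in sgRosa libraries) went the other way without overlap. Of 14 markers of other cell types, 3 had values, summing to 244.5 to 350.1 CPM in guide libraries against 156.1 to 192.3 CPM in sgRosa libraries, nearly all of it CD4, which monocytic cells also carry. B cell, erythroid and fibroblast markers had no value. The T cell chain CD3D stood at 5.70 to 7.98 CPM in guide libraries and 13.6 to 18.5 CPM in sgRosa libraries. The part that these markers play in the results below was not tested. In bulk RNA, fewer cells of a type and less RNA per cell cannot be told apart.

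Of the 10 genes, 8 rose when both guides were set against sgRosa with limma on log2(CPM + 0.5), and none fell past an adjusted p of 0.05. The 8 genes were ITGAX, ITGAM, ICAM1, ITGB7, ITGB2, ICAM3, ITGA5 and ITGAL, with log2 changes of 3.41, 3.12, 2.03, 1.68, 1.55, 0.80, 0.73 and 0.46. ITGA4 and ITGB1 did not pass the test. The same contrast called 41.4% of the 11383 tested genes, 20.7% as higher and 20.7% as lower. The median log2 change of the 10 genes was 1.18, beside -0.06 over all tested genes. Counting by ranges, 8 genes had all 4 guide libraries above all 3 sgRosa libraries, as did 19.6% of tested genes, and none had them below. The ranges of the groups did not overlap, in either direction, for 43.4% of tested genes. Among the 10 genes, 1 was lower at an unadjusted p under 0.05, and voom on the recovered reads called the same number higher, 8, and 0 lower. The fit gave each guide its own mean, so differences between the 2 guides did not enter the error of the pooled test. With 1 mean for both guides, ITGAL no longer passed (limma adjusted p = 0.069).

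**Figure D1:**
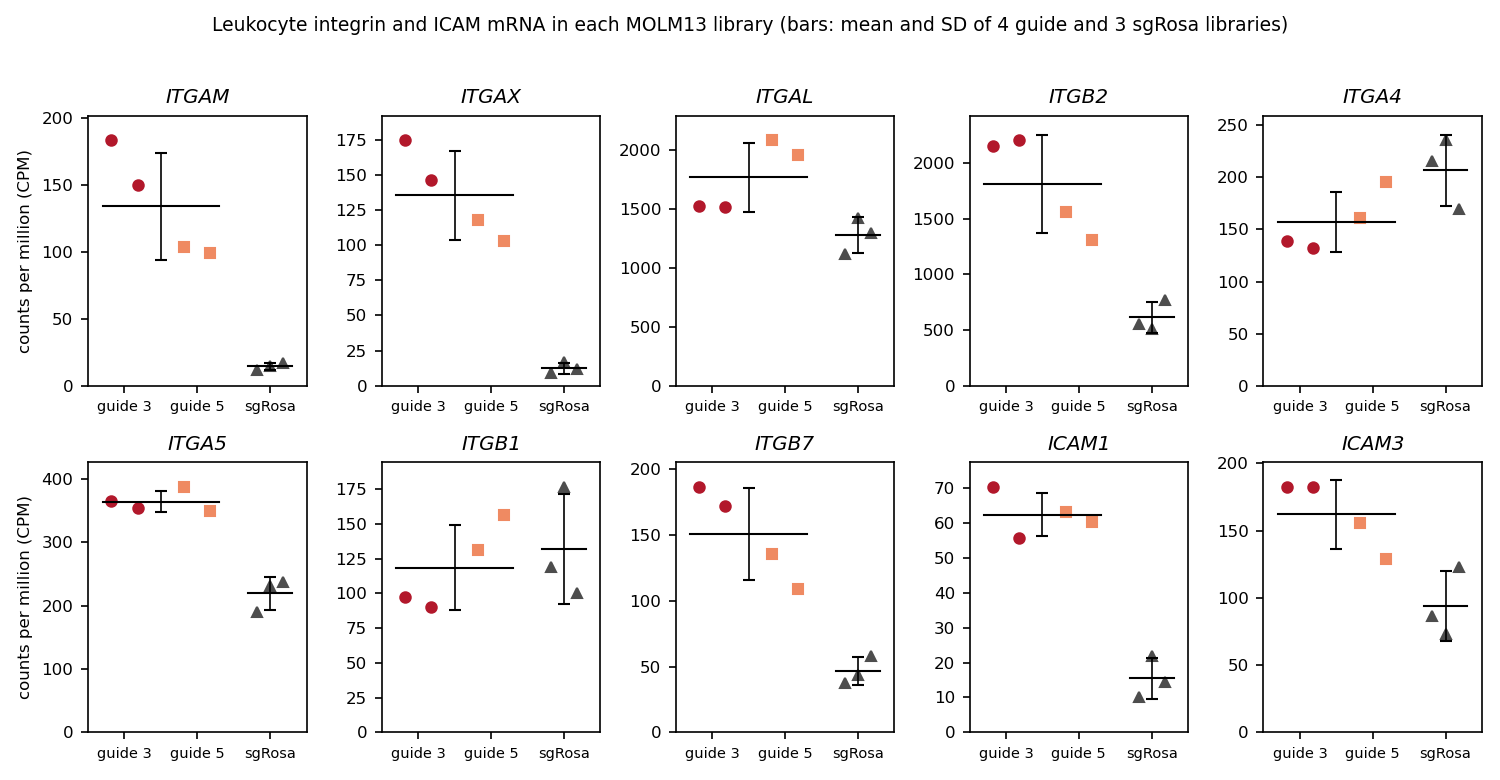
CPM of each gene in each library, on linear axes that start at 0. Points are single libraries of guide 3 (circles), guide 5 (squares) and sgRosa (triangles), and bars give the mean and SD of the 4 guide and the 3 sgRosa libraries. The guide and sgRosa points overlap for ITGA4 and ITGB1 and are separate for the other 8 genes.

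The beta2 alpha chains of mature myeloid cells changed most. ITGAM, the alpha chain of Mac-1, had 183 and 149.7 CPM with guide 3 and 104 and 99.5 CPM with guide 5, against 11.9, 15.1 and 16.9 CPM in the sgRosa libraries. All 4 guide libraries lay well above the controls, and guide 3 lay above guide 5. It averaged 134 ± 40.02 CPM in guide libraries (SD, n = 4) and 14.6 ± 2.53 CPM in sgRosa libraries (SD, n = 3), an 8.70-fold difference (log2 3.12, SE 0.18, adjusted p = 4.70e-08). The gene lies at chr16:31259967-31332892 on the plus strand (GENCODE 29, GRCh38), with ITGAX 3′ of it on the same strand at chr16:31355134-31382997.

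ITGAX, the alpha chain of CR4, had the same order of guide libraries, though not of controls. It had 175 and 146 CPM with guide 3 and 118 and 103 CPM with guide 5, against 8.91, 16.6 and 11.7 CPM in the sgRosa libraries. Its 10.7-fold difference was the greatest fold among the 10 genes (log2 3.41, SE 0.21, adjusted p = 8.84e-08). The lowest guide library was thus far above the highest control.

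ITGAL, the alpha chain of LFA-1, was already abundant in the controls and rose little. It had 1531 and 1516 CPM with guide 3 and 2087 and 1959.9 CPM with guide 5, against 1118, 1425 and 1299 CPM in the sgRosa libraries. Every guide library was above every control, with guide 3 closest to control replicate 2. The pooled difference was 1.38-fold (log2 0.46, SE 0.17, adjusted p = 0.0419). Guide 5 passed the test on its own (log2 0.67, adjusted p = 0.0345) and guide 3 did not (log2 0.26, adjusted p = 0.310). The guide 5 call held in 13 of 19 alternatives and was lost without either guide 3 library (adjusted p = 0.0809 and 0.0821), either guide 5 library (0.328 and 0.169) or control replicate 1 (0.0837). The pooled call held in 9 of 20 alternatives. It was lost without any 1 of 6 libraries (adjusted p 0.0619 to 0.165), control replicate 2 being the exception, and after correction for GC content (log2 0.04, adjusted p = 0.735).

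ITGB2, the beta chain these alpha chains share, rose with both guides. It had 2155 and 2203 CPM with guide 3 and 1559 and 1312 CPM with guide 5, against 556, 508 and 773 CPM in the sgRosa libraries. Guide 3 again lay above guide 5, and both above the controls. The difference was 2.93-fold (log2 1.55, SE 0.19, adjusted p = 4.32e-05). The antisense gene ITGB2-AS1 overlaps 303 exon bases of ITGB2 (4.46%) and stood at 17.6, 17.6, 11.6 and 8.97 CPM in guide libraries, against 2.54, 4.68 and 3.23 CPM in sgRosa libraries. The strand setting of the read counting is not given in the sources used here, so reads of overlapping genes may be exchanged.

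Because the alpha chains share ITGB2, their shares among each other were compared within each library, per kilobase of merged exon (exon RPKM), which does not depend on how libraries were scaled. ITGAL made up 80.6%, 83.3%, 90.2% and 90.4% of the summed alpha chain exon RPKM in guide libraries, against 98.1%, 97.8% and 97.8% in sgRosa libraries. ITGAM took 7.67 ± 2.97% in guide libraries and 1.27 ± 0.151% in sgRosa libraries (SD, n = 4 and 3). ITGAX took 6.20 ± 1.997% in guide libraries and 0.854 ± 0.167% in sgRosa libraries (SD, n = 4 and 3). LFA-1's alpha chain was thus the main one in every library, with a smaller share in each guide library than in any control. The log2 ratio of the summed alpha chains to ITGB2 was 0.28 ± 0.51 in guide libraries and 1.18 ± 0.37 in sgRosa libraries (SD, n = 4 and 3). Here ITGB2 gained on its partners, and in both guide 3 libraries it exceeded their sum. Groups did not overlap in any of these quantities, and each two-sided exact permutation test gave p = 0.0571, the smallest that 4 against 3 libraries allow.

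**Figure D2:**
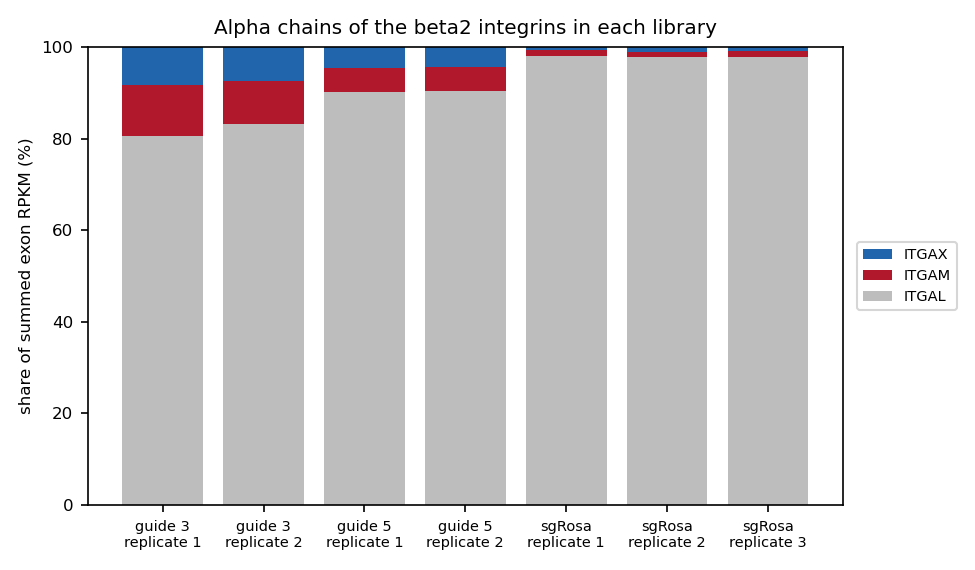
Share of ITGAL (grey), ITGAM (red) and ITGAX (blue) in their summed exon RPKM, in percent, with 1 bar for each library. ITGAL fills 80.6% to 90.4% of the guide bars and 97.8% to 98.1% of the sgRosa bars.

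The integrins of the beta1 and beta7 group did not move as one. ITGA5, the alpha chain of the fibronectin receptor, had 365, 354, 388 and 350.1 CPM in guide libraries, against 190.3, 231 and 238 CPM in sgRosa libraries. The 4 guide libraries were close together and all above the controls. It rose 1.66-fold (log2 0.73, SE 0.16, adjusted p = 0.00375), and by nearly the same log2 change with guide 3 (0.72, adjusted p = 0.0117) and guide 5 (0.75, adjusted p = 0.0172). The calls of the single guides were lost without some libraries: guide 3 without either of its own replicates (adjusted p = 0.102 and 0.111), and guide 5 without either of its own (adjusted p = 0.249 and 0.101) or control replicate 1 (adjusted p = 0.0578).

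ITGA4, the alpha chain of VLA-4, had lower values with guide 3. It had 139 and 132 CPM with guide 3 and 161 and 196 CPM with guide 5, against 216, 236 and 169 CPM in the sgRosa libraries. The groups overlapped through guide 5 replicate 2 and control replicate 3. The pooled log2 change of -0.40 (SE 0.17) had an adjusted p of 0.0772. Guide 3 alone passed (log2 -0.60, adjusted p = 0.0361), but lost the call without either guide 3 library, either guide 5 library or control replicate 1 (adjusted p 0.0636 to 0.238). It was also lost after GC correction (log2 -0.31, adjusted p = 0.062) and with no variance trend (adjusted p = 0.0522). Without control replicate 3 the pooled log2 change was -0.54 and passed (adjusted p = 0.0258). ITGA4 made up 29.1 ± 3.99% of the summed exon RPKM of ITGA4 and ITGA5 in guide libraries and 47.4 ± 6.04% in sgRosa libraries (SD, n = 4 and 3). The guide libraries reached 34.9% at most and the sgRosa libraries 40.6% at least (two-sided exact permutation p = 0.0571, the smallest possible). This share was not corrected for GC content, which is 44.1% for ITGA4 and 54.5% for ITGA5.

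ITGB1, the beta chain of both receptors, had 97.2 and 90.0 CPM with guide 3 and 131 and 156 CPM with guide 5, against 119, 177 and 100.4 CPM in the sgRosa libraries. Both guide 3 libraries lay below every control, while both guide 5 libraries lay within the control range, and the controls ran over a wide range. The pooled log2 change was -0.15 with a 95% confidence interval of -0.58 to 0.29 (adjusted p = 0.569). Without control replicate 2 it was 0.08 (adjusted p = 0.628), so 1 library set its sign. After GC correction it was 0.25 and passed (adjusted p = 0.0426).

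ITGB7, the other beta chain that pairs with ITGA4, had 186, 172, 135 and 109 CPM in guide libraries, against 37.4, 43.5 and 58.3 CPM in sgRosa libraries. Guide 3 was highest and no guide library reached down to the controls. It rose 3.21-fold (log2 1.68, SE 0.19, adjusted p = 2.24e-05). The opposite-strand gene ZNF740 shares 1886 exon bases with ITGB7, which is 42.1% of the ITGB7 exons. ZNF740 had 52.7 to 59.3 CPM in guide libraries and 63.8 to 74.0 CPM in sgRosa libraries, and did not pass the test (log2 -0.28, adjusted p = 0.168).

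Both ICAM ligands rose. ICAM1, which inflammatory cytokines induce on many cell types, had 70.3, 55.6, 63.0 and 60.1 CPM in guide libraries, against 10.1, 21.8 and 14.5 CPM in sgRosa libraries. The 4 guide libraries lay close together, and guides 3 and 5 did not separate. The difference was 4.10-fold (log2 2.03, SE 0.23, adjusted p = 2.95e-05). An antisense gene, AC011511.5, overlaps 21.99% of the ICAM1 exon bases. ICAM3, a ligand that resting leukocytes carry, had 182, 182, 155 and 129 CPM in guide libraries, against 86.4, 72.9 and 123 CPM in sgRosa libraries. Its lowest guide library and its highest control nearly met. ICAM3 rose 1.75-fold (log2 0.80, SE 0.19, adjusted p = 0.00633), with guide 3 past the test (log2 0.99, adjusted p = 0.00585) and guide 5 not (log2 0.62, adjusted p = 0.0760). Guide 3 lost its call without guide 3 replicate 2 (adjusted p = 0.059), and guide 5 gained one without control replicate 3 (adjusted p = 0.0139). The antisense gene AC114271.1 covers 71.2% of the ICAM3 exon bases. The log2 ratio of ICAM1 to ICAM3 exon RPKM was -1.702 ± 0.26 in guide libraries and -2.97 ± 0.78 in sgRosa libraries (SD, n = 4 and 3; two-sided exact permutation p = 0.0571, the smallest possible).

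RefSeq promoter stretches of ICAM1 and ITGAM are shown because their messages rose several-fold and the stretches hold motifs of factors active in myeloid cells. In all, 5 motifs were searched on both strands of the RefSeq windows (GRCh38.p14) of 7 of the 10 genes, ITGAX, ITGAL and ITGB2 having none: GAGGAA (the PU.1 box), GGAAATTCC (kappa-B), TGANTCA (AP-1), TTCNNNGAA (STAT) and TTGCNNAA (C/EBP). Each window runs from 250 bases before to 50 after a start. Capitals mark the match, and none overlaps another motif.
ICAM1 kappa-B match, chr19:10270924-10270952, plus strand: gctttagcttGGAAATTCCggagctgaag
ICAM1 STAT match, chr19:10271035-10271063, plus strand: ggcgcgaggtTTCCGGGAAagcagcaccg
ITGAM promoter with a PU.1 box, chr16:31259725-31259966, plus strand: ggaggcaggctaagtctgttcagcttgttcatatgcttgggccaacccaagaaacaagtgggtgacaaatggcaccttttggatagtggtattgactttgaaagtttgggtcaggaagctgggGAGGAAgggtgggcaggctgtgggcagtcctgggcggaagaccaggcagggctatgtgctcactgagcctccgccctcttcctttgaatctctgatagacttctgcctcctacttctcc

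The ICAM1 matches lie at positions -186 to -178 and -75 to -67 from the RefSeq start. Among 35116 promoter windows, 0.461% hold GGAAATTCC and 7.66% hold TTCNNNGAA. The ITGAM match shown lies at positions -127 to -122, a second lies after the start, and 27.9% of windows hold GAGGAA. Of the other windows, that of ITGA5 held TGANTCA (7.71% of windows) and TTGCNNAA (10.5%), and those of ITGB7, ICAM3 and ITGB1 held GAGGAA in at least 1 window. One ICAM3 window held TTGCNNAA. The ITGA4 window held none of the motifs. ITGB7 also rose several-fold, and its stretch is not shown. Whether these motifs play a part in the changes was not tested. GENCODE 29 starts an ICAM1 transcript upstream of both ICAM1 stretches.

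Each guide was also set against sgRosa alone. With guide 3, 7 of the 10 genes rose and ITGA4 fell, where 39.8% of tested genes were called, 21.0% as higher and 18.8% as lower. With guide 5, 7 rose and none fell, where 19.7% were called, 12.0% as higher and 7.64% as lower. None of the 10 genes was lower with guide 5 at an unadjusted p under 0.05 or by voom. The genes that rose differed in 1: ICAM3 passed with guide 3 only and ITGAL with guide 5 only, and the difference between guides passed for neither. Both comparisons share the 3 sgRosa libraries. ITGAM changed by log2 3.47 with guide 3 and 2.77 with guide 5, ITGAX by 3.68 with guide 3 and 3.15 with guide 5. ITGB2 changed by 1.85 with guide 3 and 1.25 with guide 5, and ITGB7 by 1.96 with guide 3 and 1.40 with guide 5. Without guide 5 replicate 1, the guide 5 call of ITGB2 was lost (log2 1.123, adjusted p = 0.0542).

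**Figure D3:**
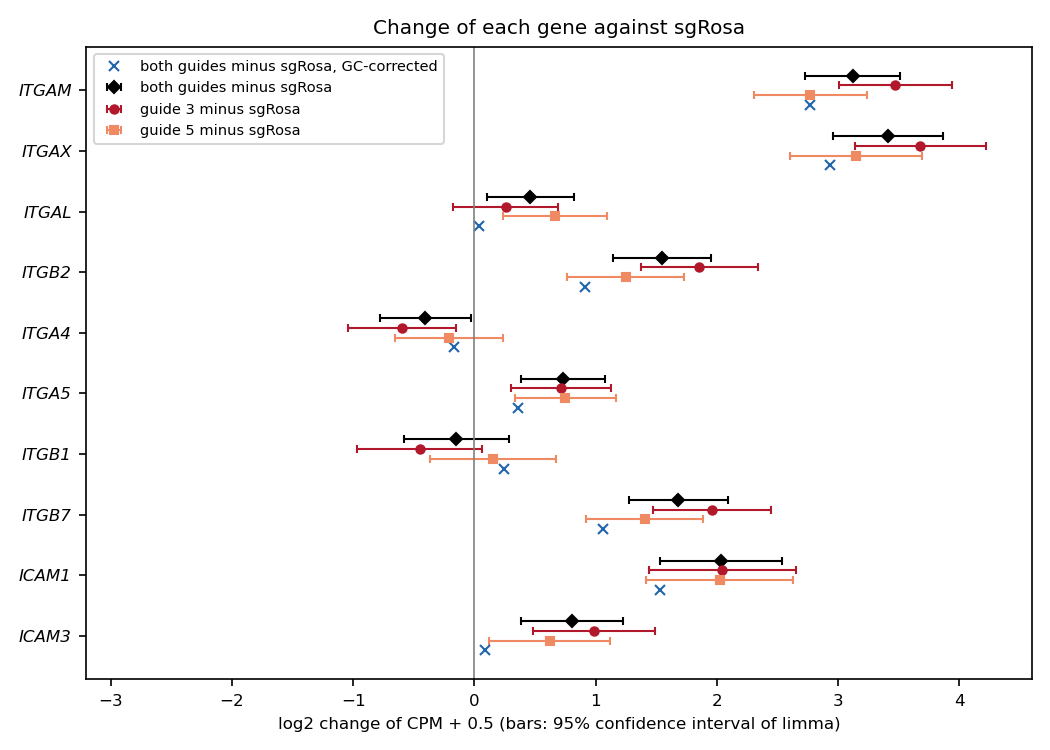
Log2 change of each gene against sgRosa, for both guides (black diamonds), guide 3 (red circles) and guide 5 (orange squares), with limma's 95% confidence intervals, and for both guides after GC correction (blue crosses). ITGAM and ITGAX stand at 2.77 to 3.68 without correction, and ITGA4 and ITGB1 have the only pooled changes below 0.

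Set against each other, guide 5 minus guide 3, no member passed an adjusted p of 0.05 in limma, or by voom on the recovered reads, where limma called 0.299% of the 11383 tested genes, 0.246% as higher and 0.0527% as lower. The point estimates ran both ways. ITGAM (-0.70), ITGB2 (-0.61), ITGB7 (-0.56), ITGAX (-0.53) and ICAM3 (-0.37) were lower with guide 5, while ITGB1 (0.61), ITGAL (0.41) and ITGA4 (0.39) were higher. At an unadjusted p under 0.05 these included 3 lower and 1 higher. Their adjusted p ran from 0.357 upward. ICAM1 (-0.02, 95% confidence interval -0.69 to 0.64) and ITGA5 (0.04, -0.42 to 0.49) had estimates near 0 with wide intervals, which do not show that the guides act alike.

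The change between guide and sgRosa libraries ran with the GC content of the transcript across all tested genes. When the genes were cut into 10 bins of like size by GC content, 3.6% rose and 49.5% fell in the lowest bin. In the highest bin, 54.8% rose and 0.5% fell. The 2 genes that did not rise are the 2 of lowest GC content among the 10: ITGB1 at 39.98% in bin 2 and ITGA4 at 44.1% in bin 4. The 8 that rose lie in bins 7 to 10, from ITGAM at 54.2% to ICAM3 at 61.7%.

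After each library was corrected for GC content and transcript length, 6 of the 8 calls held. ITGAX kept a log2 change of 2.94 (adjusted p = 2.65e-06), ITGAM 2.77 (1.36e-06), ICAM1 1.53 (0.000484) and ITGB7 1.06 (0.000109). ITGB2 kept 0.91 (adjusted p = 0.000428) and ITGA5 0.36 (adjusted p = 0.00649). The increases of ICAM3 (0.09, adjusted p = 0.515) and ITGAL (0.04, adjusted p = 0.735) were lost. The median of the 10 genes was then 0.63, beside -0.12 over all tested genes, and 7 rose, ITGB1 now included, where 17.7% of all tested genes rose.

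**Figure D4:**
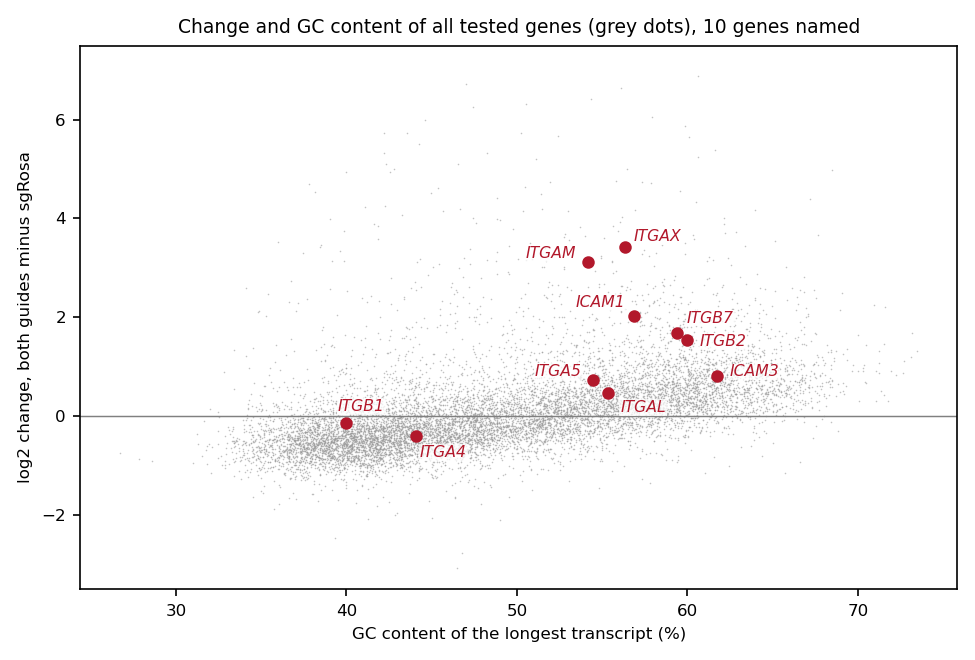
Log2 change of both guides minus sgRosa against the GC content of the longest transcript in percent. Each grey dot is 1 of 11383 tested genes, and red dots are the 10 genes. The cloud slopes upward, with ITGB1 and ITGA4 inside it at the left and ITGAM, ITGAX and ICAM1 above it at the right.

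Levels were ordered between genes by exon RPKM. In guide libraries ITGAL (274 ± 45.3) and ITGB2 (266 ± 64.9) came first, and their ranges overlapped. In sgRosa libraries ITGAL (198 ± 23.8) was clearly above ITGB2 (90.1 ± 20.8), again with SD over 4 and 3 libraries. ICAM3 (55.0 in guide libraries, 31.9 in sgRosa libraries) and ITGA5 (48.1 in guide libraries, 29.02 in sgRosa libraries) were next in both groups, with overlapping ranges. Below them the order differed. ITGAM stood at 23.6 and ITGAX at 19.2 in guide libraries, within the ranges of ITGA4 (19.8) and ITGB1 (19.7). In sgRosa libraries ITGAM (2.57) and ITGAX (1.75) were the lowest of the 10, below ICAM1 (4.18), while ITGA4 (26.2) and ITGB1 (21.9) came next after ITGA5. ITGB7 stood at 33.6 in guide libraries and 10.4 in sgRosa libraries.

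Genes that work with these integrins were counted in 5 lists, with both guides against sgRosa, where 20.7% of all tested genes rose and 20.7% fell with a median of -0.06. After GC correction 17.7% of all tested genes rose and 29.3% fell. Of 18 other integrin subunits, 11 were not tested, and ITGA9 passed the filter only through the guide libraries. Of the other 6, 2 rose and none fell, with a median log2 change of 0.43. ITGA9, an alpha chain that pairs with ITGB1, had 11.5, 9.20, 5.19 and 5.10 CPM in guide libraries and no read in any sgRosa library. Its direction was fixed by the filter. The mean of its guide libraries was 54.6-fold above a floor of 3 reads per sgRosa library. ITGB5, a partner of the alpha-v chain, rose by log2 1.697 (adjusted p = 4.12e-05). ITGA7, a laminin receptor chain, rose by 0.53 (adjusted p = 0.0274), a call lost in 6 of 20 alternatives, and had a log2 change of -0.12 after GC correction. With guide 5 alone ITGA7 did not pass (log2 0.44, adjusted p = 0.143).

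Of 14 other integrin ligands, 6 were not tested, and FN1, SPP1 and THBS1 passed the filter only through the guide libraries, so their direction was fixed by it. Of the other 5, ICAM4, ICAM5 and CD93 rose and none fell, with a median of 0.46. With guide 5 alone ICAM5 and CD93 did not pass (adjusted p = 0.0797 and 0.388). FN1, fibronectin, the ligand of ITGA5 with ITGB1, had 35.6, 27.2, 20.2 and 21.7 CPM in guide libraries, against 0.324, 0 and 0.164 CPM in sgRosa libraries. SPP1, osteopontin, had 9.15, 7.19, 5.14 and 5.82 CPM in guide libraries and no read in sgRosa libraries (mean of the guide libraries 48.2-fold above the same floor). THBS1, thrombospondin, had 6.86, 4.05, 2.52 and 2.09 CPM in guide libraries, against 0.0540, 0.888 and 0.164 CPM in sgRosa libraries, where control replicate 2 held 19 of the reads and the others 1 and 4. All 3 are secreted proteins. After GC correction 2 of the other 5 ligands rose and ICAM2, a ligand of LFA-1, fell by 0.90 on the log2 scale (adjusted p = 0.000214).

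The list for integrin activation from inside the cell, which mixes activators and inhibitors, had 9 of 21 tested genes higher and 2 lower. Its counts thus give no direction of activation. The median was 0.10, and 2 listed genes were not tested. FERMT3, kindlin-3, the kindlin of blood cells that binds the beta tail, rose by log2 1.79 (adjusted p = 1.54e-05), while its epithelial relative FERMT1 fell by 1.43 on the log2 scale (adjusted p = 9.71e-05). The other gene that fell was TLN2, a talin, named after its values were seen: its log2 change was -0.51 with both guides (adjusted p = 0.0441), -1.235 with guide 3 and 0.22 with guide 5, and the guides differed from each other (guide 5 minus guide 3 log2 1.45, adjusted p = 0.0217). The pooled call held in 10 of 19 alternatives and was lost with 1 mean for both guides (adjusted p = 0.264). The other talin listed, TLN1, also named after its values were seen, averaged 996.6 CPM in guide libraries and 688.3 CPM in sgRosa libraries. It rose by log2 0.53 (adjusted p = 0.0236), a call lost after GC correction (log2 -0.04, adjusted p = 0.743). DOK2, an adaptor that dampens tyrosine kinase signals, rose by 1.37 (adjusted p = 7.43e-05). SIPA1, which turns RAP1 off, rose by 1.06 (adjusted p = 0.00266), though guide 5 alone did not pass (log2 0.65, adjusted p = 0.0943). The guide and sgRosa ranges of SIPA1 overlapped. After GC correction 4 of the list rose and 4 fell, and SIPA1 no longer passed (adjusted p = 0.0807).

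Signalling from bound integrins had 16 of 28 tested genes higher and 1 lower, with a median of 0.55, and 3 listed genes were not tested. FGR, a Src family kinase of myeloid cells, had 220.2, 191, 123 and 104 CPM in guide libraries, against 11.1, 15.2 and 17.6 CPM in sgRosa libraries. FCER1G, an ITAM adaptor through which beta2 integrins signal in neutrophils and macrophages, rose by log2 3.15 (adjusted p = 3.51e-06), and SRC by 2.84 (adjusted p = 1.76e-06). VAV3 fell by 0.96 on the log2 scale (adjusted p = 0.00316). After GC correction 11 rose and 3 fell.

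Of 9 other tested adhesion receptors, 3 rose and 1 fell, with a median of 0.26, and 4 were not tested. PECAM1 rose by log2 1.49 (adjusted p = 0.000197), SIRPA, the receptor of CD47, by 0.87 (adjusted p = 0.00273) and BSG, basigin, by 0.78 (adjusted p = 0.00653). ALCAM, a homophilic adhesion molecule, fell by 0.87 on the log2 scale (adjusted p = 0.00674). With guide 5 alone BSG did not pass (log2 0.56, adjusted p = 0.0968). The BSG call was lost after GC correction (log2 0.06, adjusted p = 0.579), where 2 of the list rose and 2 fell.

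**Figure D5:**
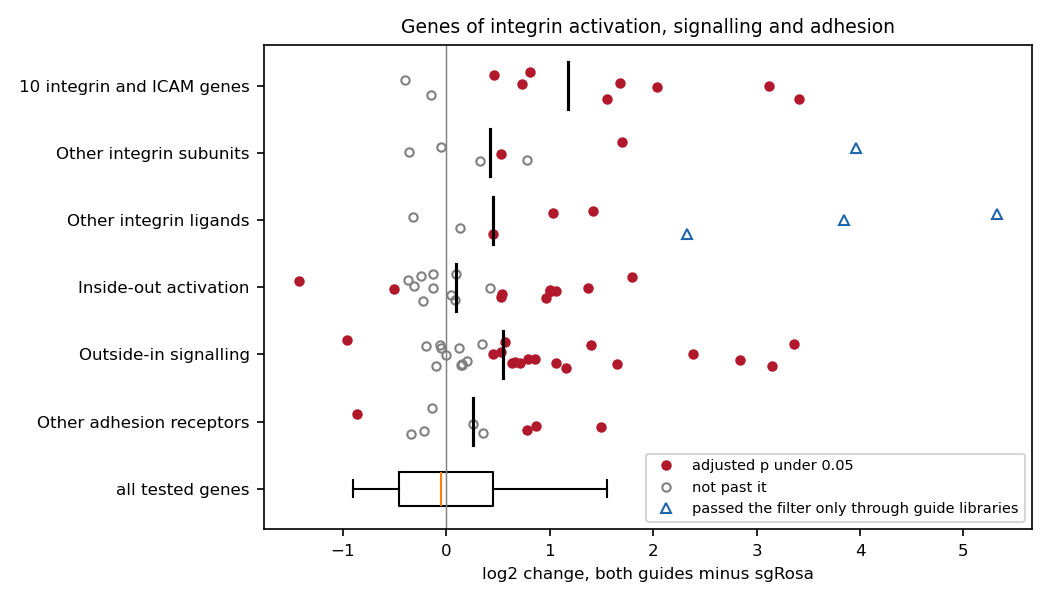
Log2 change of both guides minus sgRosa for each tested gene of the 10 and of the 5 lists. Filled red dots passed an adjusted p of 0.05, open grey dots did not, and blue triangles passed the filter only through the guide libraries. Black bars are medians without the triangles, and the box of all tested genes gives quartiles with whiskers at the 5th and 95th percentiles. The median of the 10 genes lies at 1.18, and those of the lists at 0.10 to 0.55.

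ZFP36L2 belongs to a family that binds UAUUUAU in 3′ UTRs, so the sites of the 10 genes are shown, from the longest annotated 3′ UTR in GENCODE 29, with the 7-base site in capitals and the position of its first base in the UTR.
ITGAL, 1490 of 1520 bases: gugccugcaugUAUUUAUccaauaaaugu
ITGA4, 517 of 660 bases: uuaaagcccuuUAUUUAUaauacauuucc
ITGB1, 18 of 1323 bases: ggugaaaauccUAUUUAUaagagugccgu
ITGB1, 1216 of 1323 bases: uuuacugaaguUAUUUAUuaaauaugccu
ICAM1, 500 of 1328 bases: uugaugauaugUAUUUAUucauuuguuau
ICAM1, 527 of 1328 bases: auuuuaccagcUAUUUAUugagugucuuu

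The 7-base site was thus found in 4 of the 10 genes (40%), beside 34.9% of 10604 tested genes with a 3′ UTR. Of these 4, ICAM1 rose 4.10-fold and ITGAL 1.38-fold, and ITGA4 and ITGB1 did not pass the test. ITGAM, ITGAX, ITGB2 and ITGB7, which rose by log2 1.55 to 3.41, had no such site in the UTR searched. The shorter core AUUUA was present in 7 of the 10 (70%), beside 73.4% of those tested genes.

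By the distance between centred log2 profiles over the 7 libraries, the tested genes most like ITGAM were MMP19 (root mean square distance 0.106), a matrix metalloproteinase, MARCO (0.117), a scavenger receptor of macrophages, and DNASE2 (0.144), a lysosomal nuclease. MMP19 had 11.5, 8.63, 6.18 and 7.06 CPM in guide libraries, against 0.378, 0.655 and 0.696 CPM in sgRosa libraries. MMP19 thus passed the filter only through the guide libraries. At such low control values, its log2 change of 3.02 and its distance to ITGAM depend on the constant added before taking logs. Its place among the genes most like ITGAM was not tested with another constant. MARCO had 91.7, 83.2, 46.9 and 51.4 CPM in guide libraries, against 4.97, 6.55 and 7.41 CPM in sgRosa libraries. The genes most like ITGA4 were TRUB1 (0.0431), ACADSB (0.0442) and ATL2 (0.0453), a pseudouridine synthase, an acyl-CoA dehydrogenase and a membrane-shaping GTPase.

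The authors' deposited table gives each guide's log2 fold change over the control from its own fit. For ITGAM the authors' deposited table has 3.51 with guide 3 and 2.80 with guide 5, and for ITGAX 3.69 with guide 3 and 3.16 with guide 5. For ITGA4 the authors' deposited table has -0.61 with guide 3 (false discovery rate 0.0366) and -0.22 with guide 5 (0.478). For ITGAL the authors' deposited table has 0.25 with guide 3 (0.326) and 0.66 with guide 5 (0.0364).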

How the data were processed

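Poly(A) RNA was sequenced single-end from directional libraries, per the labels' protocols. STAR 2.5.3, HTSeq, edgeR and limma are named, with GRCh38.p7 and hg38, per the submitters' processing notes, which give no roles, parameters or strand setting. The deposited tables hold FPKM for each library, the authors' log2 fold changes of each guide, the authors' p-values adjusted as false discovery rates, and a group mean of CPM (a signal the authors scaled to an adjusted library size). Of 11581 listed genes, 173 without FPKM or symbol were left out. Dividing mean CPM by mean FPKM gave a whole gene length for all 11408 genes (within 0.01), equal to the GENCODE 29 gene span for 8064, so the deposited FPKM are per kilobase of gene including introns. FPKM times this length gave the CPM used here, and whole reads for 100% of values in each library.

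Genes with a mean CPM of at least 1 were tested, 11383 in all. Values of log2(CPM + 0.5), which understate changes of low genes, went into linear models in R 4.3.3 (limma 3.58.1), which estimated 1 mean per group (sgRosa, guide 3, guide 5) and moderated the variances along a trend with expression (residual degrees of freedom 4, prior 8.88). Tests were two-sided, with Benjamini-Hochberg adjustment over all tested genes and a threshold of 0.05. Exon RPKM is CPM per kilobase of merged GENCODE 29 exons. Shares and ratios were tested by exact permutation. The fits were tested on simulated data. The members and lists were chosen with earlier results of these data known. Named were all 10 members, up to 3 called genes at each end of each list whose sign was shared by the guides, and the 3 genes most like ITGAM and ITGA4. The labels number the ZFP36L2 guides differently from the columns, and no statement depends on their pairing. Depth limits cover counting error only, since the reads carry no molecular identifiers. Alternatives changed the added constant, filter, scale, library scaling, test, design, GC content and length correction, and library set.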

Additional observations from a re-analysis of the deposited data

Results flagged for a closer look

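TLN2, a talin that couples integrins to actin, differed between the guides: guide 5 minus guide 3 gave a log2 difference of 1.454 (adjusted p = 0.0217 in limma), with 24.3 and 18.5 CPM in guide 5 libraries and 7.04 and 7.84 CPM in guide 3 libraries, and 17.98, 18.42 and 18.13 CPM in sgRosa libraries. For TLN1, the more abundant talin of the list, guide 5 minus guide 3 gave -0.12 (adjusted p = 0.867 in limma).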

How the results depend on the processing

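ITGAM, ITGAX, ITGB2, ITGA5, ITGB7 and ICAM1 passed for both guides in 20 of 20 alternatives, ICAM3 in 19, ITGAL in 9, ITGA4 in 3 and ITGB1 in 1. Over the 4 comparisons, 715 results of the 10 genes kept direction and side of the threshold, 33 lost the call, 9 gained one and 13 turned round, and the cause was not tested. Those that turned were ICAM1, guide 5 minus guide 3, under quantile normalization (0.0096), median of ratios scaling (0.0025), the plain sum of reads (0.0519), GC correction (0.1709), and without guide 3 replicate 1 or guide 5 replicate 2 (-0.1895 to 0.1461 without each library); ITGA5 in that comparison without guide 5 replicate 1 (-0.0385 to 0.1085); ITGB1 under GC correction for both guides (0.2455) and guide 3 (0.0267), without control replicate 2 for both guides (-0.323 to 0.0828) and without control replicate 3 for guide 5 (-0.0183 to 0.3875); and ITGAL for guide 3 under GC correction (-0.2219). ITGA7 turned under GC correction (-0.1164). The log2(FPKM + 0.5) scale, with fewer genes tested, called 2865 genes for both guides, 2759 for guide 3 and 1344 for guide 5. For guide 5, quantile normalization called 3425 genes (1593 higher, 1832 lower) and GC correction 3937 (1574 higher, 2363 lower), beside 1368 higher and 870 lower; for both guides GC correction called 2012 higher and 3331 lower, beside 2361 and 2353. For guide 5 minus guide 3, counts were 131 under quantile normalization, 53 under median of ratios and under voom, 67 under the plain sum and 181 under GC correction, beside 34. Leaving out each library gave 2716 to 5522 genes for both guides, 1505 to 5523 for guide 3, 678 to 3585 for guide 5 and 11 to 386 for guide 5 minus guide 3; the lowest counts came without guide 5 replicate 1, guide 3 replicate 2, guide 5 replicate 1 and guide 5 replicate 2, and 3585 and 386 came without control replicate 2. The shares and ratios kept their direction without division by exon length and without each library, from -13.2 to -9.90 points for ITGAL without each library. They were not corrected for GC content. Deviations of same-numbered libraries from their group means correlated at -0.491 to 0.374 over 6 pairs. With 2 libraries per guide, the deviations of a guide mirror each other, so this check cannot show whether replicate numbers pair the libraries. With the replicate number as a block, 5315 genes were called for both guides and 139 for guide 5 minus guide 3. There ITGAL lost its pooled call (0.4760), ITGA4 gained one (-0.5402), and ITGB1 turned for guide 5 (-0.0183). Only sgRosa has a replicate 3, so the block gave the same log2 changes as leaving out control replicate 3. The counts of alternatives above include both settings.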
